A study of Mus musculus with 100 samples.

Results

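The integrated stress response genes described here are Atf4, Ddit3, Atf3, Nupr1, Chac1, Trib3, Sesn2, Asns, Psat1 and Slc7a11, 10 of 23109 gene-level entries measured in 37 RNA-sequencing libraries of mouse embryos and mouse stem cell cultures. They were listed as genes of the ATF4 pathway with the E9.5 embryo comparison in view, in which Chac1 was among the most raised genes. The E9.5 values are therefore given as a description, without a test. Tests are given for E8.5 embryos and for the cultures, whose values the rule for the genes does not use, although earlier results of the whole series were known when the list was made.

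In the integrated stress response, kinases that sense amino acid shortage, misfolded protein, viral RNA or lack of haem phosphorylate the translation initiation factor eIF2. General translation falls, while the Atf4 mRNA is translated better through short reading frames upstream of its coding sequence. ATF4 is a transcription factor that raises genes for amino acid uptake and synthesis, redox balance and, when stress lasts, growth arrest and cell death. The libraries measure mRNA, so they show the Atf4 transcript and the ATF4 targets, but not the ATF4 protein or the phosphorylation of eIF2.

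The study asked what MLL3 and MLL4 do as enzymes. These related proteins (genes Kmt2c and Kmt2d) methylate lysine 4 of histone H3 at enhancers. Whole embryos were taken at E8.5 and E9.5, with 3 libraries per group. KI embryos were Mll3flox/KI;Mll4flox/KI;Sox2-Cre, and control (Ctr) embryos were Mll3flox/KI;Mll4flox/+;Sox2-Cre, so every embryo carried the Mll3 KI allele and the Cre, and the groups differed in 1 Mll4 allele. The labels do not spell out KI. Sox2-Cre is active in the epiblast, from which the embryo proper forms, so extraembryonic tissue can keep the floxed alleles.

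All the cultured cells were Mll3-/-. The reference was Mll3-/-;Mll4flox/flox (flox), and KI cells were Mll3-/-;Mll4KI/KI, from clones 27 and 48. Embryonic stem cells (ESC, day 0, in medium with LIF and inhibitors of MEK and GSK3) were compared with embryoid bodies (EB) at days 4 and 10. For these, flox had 1 library per day and KI had 2. Neural cultures, treated with retinoic acid, were sampled at day 8 (progenitors) and day 16 (neurons). Trophectoderm (TE) cultures expressed T7-tagged CDX2 from a doxycycline-inducible lentivirus until day 6, and extraembryonic endoderm (ExEn) cultures received retinoic acid and activin A until day 5. Each neural, TE and ExEn group had 2 libraries, and those of KI were 1 per clone. Embryo titles carry a separate number for each embryo, and the titles of the KI cultures carry 27 or 48, taken here as the numbers of cell clones, a word the labels do not use. For the flox libraries of 1 group nothing in the labels says that they came from separate cultures, so p-values measure only the spread between these samples, which may be technical for flox.

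Each embryo library held 20.1 to 26.9 M reads after 1 transcript was kept per gene. The range was 39.0 to 59.9 M in neural cultures, 19.6 to 27.6 M in TE and ExEn and 18.9 to 25.8 M in ESC and EB. Levels below are read counts per M reads of the library (CPM) scaled by TMM over the 37 libraries. A count of 3 reads, the limit that a count of 0 allows, is 0.05 to 0.16 CPM, for counting error only. Kmt2d was read at 141 to 343 CPM and Kmt2c at 28.6 to 107 CPM in all groups. Kmt2d was higher in KI without overlap at E9.5 (159 to 168 against 141 to 155 CPM) and in TE (174 to 194 against 144 to 146), and lower in ExEn (270 to 276 against 306 to 322) and at neural day 16 (174 to 189 against 206 to 224). Kmt2c was higher in KI without overlap at E9.5 (43.3 to 58.9 against 37.1 to 42.7 CPM) and in TE (44.4 to 51.7 against 32.2 to 35.5). In ESC and EB, with 1 flox library per day, both KI libraries were above flox for Kmt2d on all 3 days and for Kmt2c in ESC and at EB day 4. These are gene-level reads, and what they say of the KI alleles was not tested. The 8 pluripotency markers summed to 6322 to 8137 CPM in ESC, and the 8 neuron markers to 4232 to 8022 CPM at neural day 16. TE cultures still held 457 to 1318 CPM of pluripotency markers. In ExEn cultures of KI the 8 endoderm markers summed to 226 to 234 CPM against 1433 to 1435 in flox, and Ttr was at 0 in both KI libraries. The KI libraries labelled ExEn thus lack a defining marker of their label.

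A sequence that ATF4 dimers are known to bind, the C/EBP-ATF response element, has the core TGATGNAA. It was searched on both strands in the 250 bases before the transcript start that a RefSeq table gives for each gene (build GRCm38.p6). Psat1 has 2 such windows, neither with the core. For Slc7a11 the start in that table lies inside the gene record, which spans 50364936 to 50499087 on chromosome 3 on the minus strand, so its window is upstream of 1 transcript start and not of the whole record. Of the 10 genes, 5 hold it, against 3.91% of the 27025 genes with a window in the same table. These 5 windows are shown because they hold the core. Each is written 5′ to 3′ on the strand of its gene, with the matches in capitals (TTGCATCA is the same core on the other strand).
Chac1, chr2:119350992-119351241, plus strand: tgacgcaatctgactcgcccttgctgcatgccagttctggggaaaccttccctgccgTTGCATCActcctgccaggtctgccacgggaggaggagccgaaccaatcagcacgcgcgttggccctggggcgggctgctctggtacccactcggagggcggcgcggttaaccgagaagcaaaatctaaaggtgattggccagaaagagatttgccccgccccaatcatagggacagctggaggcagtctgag
Atf3, chr1:191183334-191183583, minus strand: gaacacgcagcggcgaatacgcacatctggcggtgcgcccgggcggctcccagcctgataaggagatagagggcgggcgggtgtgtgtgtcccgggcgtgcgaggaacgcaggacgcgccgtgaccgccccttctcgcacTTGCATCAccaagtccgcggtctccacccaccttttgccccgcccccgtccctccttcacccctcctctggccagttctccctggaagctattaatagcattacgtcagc
Nupr1, chr7:126625471-126625720, minus strand: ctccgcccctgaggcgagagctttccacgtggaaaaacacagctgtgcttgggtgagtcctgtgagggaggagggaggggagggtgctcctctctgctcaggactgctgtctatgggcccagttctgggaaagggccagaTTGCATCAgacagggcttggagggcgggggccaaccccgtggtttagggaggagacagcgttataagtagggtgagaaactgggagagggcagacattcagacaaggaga
Slc7a11, chr3:50443614-50443863, minus strand: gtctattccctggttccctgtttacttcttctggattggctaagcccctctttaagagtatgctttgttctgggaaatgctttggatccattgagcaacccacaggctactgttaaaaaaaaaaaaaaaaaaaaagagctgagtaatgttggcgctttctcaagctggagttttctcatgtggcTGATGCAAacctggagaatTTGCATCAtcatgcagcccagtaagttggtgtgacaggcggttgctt
Asns, chr6:7693210-7693459, minus strand: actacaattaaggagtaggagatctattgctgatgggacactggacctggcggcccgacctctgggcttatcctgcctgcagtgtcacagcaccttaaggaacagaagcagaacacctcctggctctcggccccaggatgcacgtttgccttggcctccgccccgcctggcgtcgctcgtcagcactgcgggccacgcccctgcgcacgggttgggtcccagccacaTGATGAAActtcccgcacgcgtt
Counted back from that transcript start, with -1 the base before it, the core lies at -193 to -186 in Chac1 and at -110 to -103 in both Atf3 and Nupr1. Slc7a11 holds it at -66 to -59 and again at -47 to -40, and Asns at -23 to -16. The cAMP response element TGACGTCA, which ATF3 and related factors are known to bind, was in none of the 10 windows and in 1.77% of genes. Among the related lists used below, the TGATGNAA core was in 3 of 9 other ATF4-linked regulators, 3 of 8 tRNA synthetases known as ATF4 targets and 2 of 9 genes of serine, one-carbon and amino acid synthesis with a window. It was in 1 of 8 genes of eIF2, eIF2B and the eIF2 phosphatase, and in no other list. A match is a description of the letters, and genes without one (Trib3, Ddit3, Sesn2, Atf4 and Psat1) may hold it outside this window.

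At E9.5, the KI embryos had higher levels of 7 of the 10 genes than any control embryo, and the other 3 overlapped. Over all genes, 24.7% of those with at least 1 CPM on average over both groups were higher in KI without overlap. Of the genes tested, 29.5% were called in either direction (an adjusted p under 0.05). Nothing is read from these shares for genes chosen on this contrast. The median log2 fold change of the 10 genes was 0.92, against 0.01 over all genes tested.

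**Figure D1:**
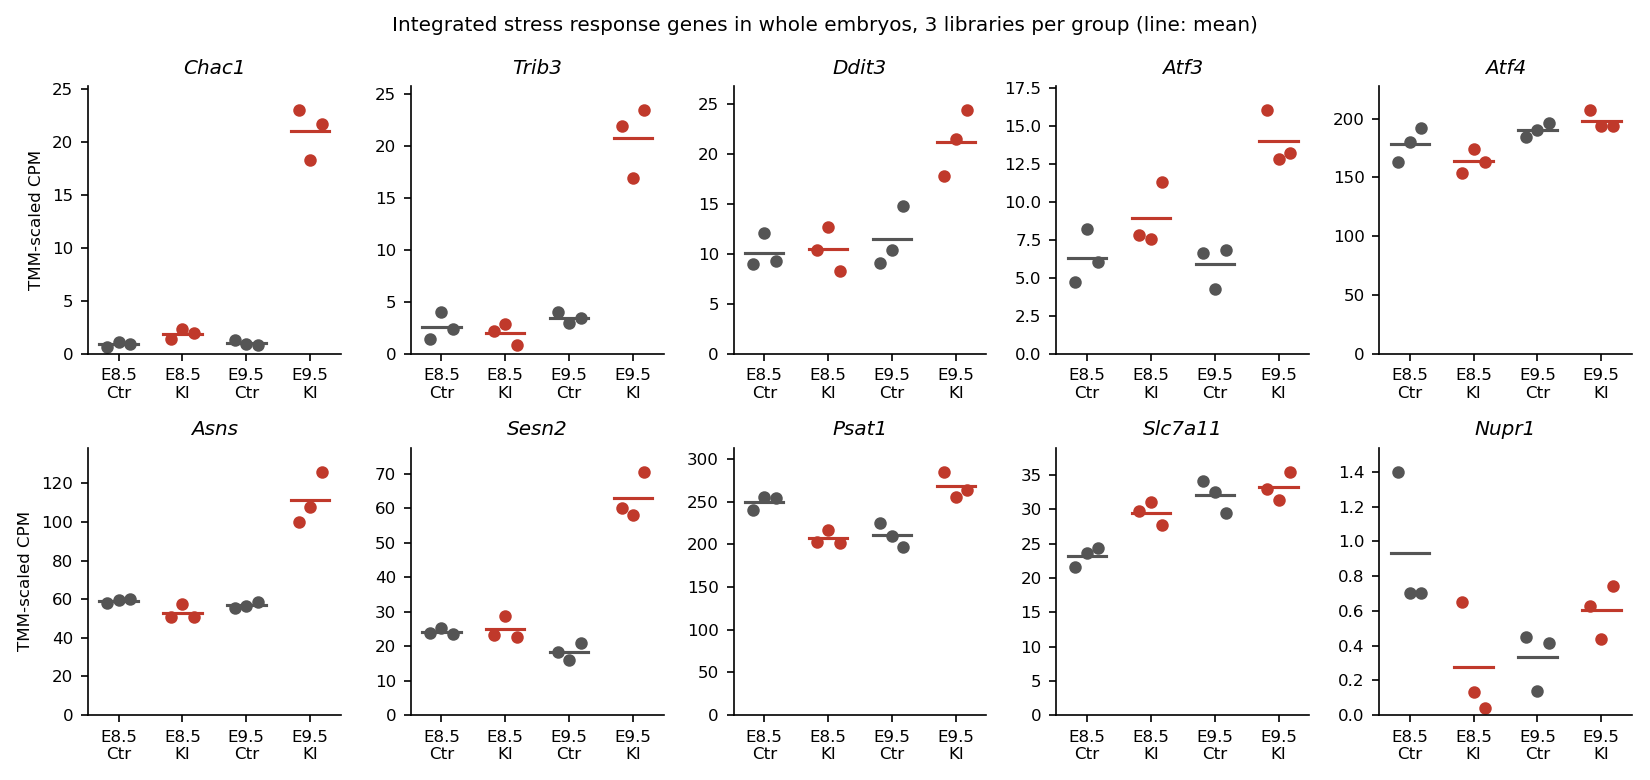
TMM-scaled CPM (vertical axes, from 0) of the 10 genes in each whole-embryo library at E8.5 and E9.5, control in grey and KI in red, with the group mean as a line. Chac1, Trib3 and Sesn2 of the E9.5 KI embryos stand apart from all other embryo groups, while Atf4 and Slc7a11 of E9.5 KI overlap their controls.

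Chac1 encodes a cyclotransferase that degrades glutathione. It was read at 23.0, 18.3 and 21.7 CPM in the 3 E9.5 KI embryos and at 1.27, 0.893 and 0.832 CPM in the 3 controls, which rest on 20 to 34 reads each. Every KI embryo was thus more than 10-fold above every control, and the mean was 21.0 ± 2.43 (SD, n = 3) against 0.997 ± 0.235 CPM, a log2 fold change of 4.38 (SE 0.26). Trib3, a pseudokinase that restrains AKT and ATF4 in feedback, stood at 21.9, 16.9 and 23.4 CPM in KI against 4.02, 2.95 and 3.41 CPM in controls. Its log2 fold change was 2.57 (SE 0.37), the second of the 10.

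Sesn2 encodes sestrin 2, a leucine sensor that holds back mTORC1. It was at 60.1, 58.1 and 70.6 CPM in KI and at 18.3, 15.9 and 20.8 CPM in controls, a log2 fold change of 1.77 (SE 0.12). The groups were well apart, with the lowest KI embryo above the highest control.

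Among the transcription factors, the Atf4 transcript itself hardly differed, at 207, 194 and 194 CPM in KI and 184, 190 and 196 CPM in controls (log2 fold change 0.05, SE 0.07). Atf3, an early stress factor of the same family, was at 16, 12.8 and 13.2 CPM in KI against 6.59, 4.26 and 6.78 CPM in controls (1.25 on the log2 scale, SE 0.22). Ddit3 encodes CHOP, which promotes cell death under lasting stress. It was at 17.8, 21.5 and 24.4 CPM in KI against 9.13, 10.4 and 14.8 CPM in controls (0.88 on the log2 scale, SE 0.19, and 1.11 without control 3). Ddit3 lies over Mbd6 and Mars1 in the GRCm38 annotation, and whether the counting used strand is not given in the sources used here, so reads of these genes may be mixed. Nupr1, a small stress-induced chromatin protein, was barely detected, with 16, 11 and 18 reads in KI and 12, 4 and 10 reads in controls, and the groups overlapped.

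Of the genes for amino acid supply, Asns, the asparagine synthetase, was at 100, 108 and 126 CPM in KI and 55.4, 56.6 and 58.8 CPM in controls, a log2 fold change of 0.96 (SE 0.08). Psat1, which makes phosphoserine in the serine pathway, was at 285, 256 and 264 CPM against 225, 210 and 197 CPM (0.34 on the log2 scale, SE 0.06). Slc7a11, the cystine importer xCT, overlapped between KI (33.0, 31.4 and 35.5 CPM) and control embryos (34.1, 32.6 and 29.5 CPM). Thus the enzymes of amino acid synthesis were higher without overlap, and the cystine importer was not.

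Per length, in the deposited RPKM, the highest of the 10 genes in E9.5 KI embryos were Psat1 (mean RPKM 102), Atf4 (94.6) and Asns (47.5). Chac1 reached 11 RPKM there from 0.530 in controls, above Trib3 (8.32) and Atf3 (5.83) and below Sesn2 (19.5) and Ddit3 (20.0).

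Other genes of the pathway were taken from 13 lists, of which 120 of 121 genes were measured and 118 were tested at E9.5. These lists too were chosen with earlier results known, so their counts describe the embryos and support nothing further. In KI, 47 of 118 were called higher and 24 lower (14.6% and 14.9% over all genes), with a median log2 fold change of 0.12.

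Of 8 other ATF4-linked regulators and secreted factors tested, 7 were called higher. The largest changes were in Ddit4 (3.05), an inhibitor of mTORC1, Stc2 (2.89), which encodes a secreted glycoprotein, and Vldlr (2.51), a lipoprotein receptor. Of 8 amino acid transporters, 6 were called higher, led by Slc7a3 (2.97), an importer of basic amino acids, Slc1a4 (1.09) and Slc7a5 (0.83). Slc7a3 was at 15.1 to 16.6 CPM in KI against 1.50 to 2.44 CPM in controls. Of 9 genes of serine, one-carbon and amino acid synthesis, 6 were called higher, led by Gpt2 (1.35), an alanine aminotransferase, Shmt2 (0.50) and Psph (0.48). The other 3 of these (Phgdh, Cbs and Got1) were not called in either direction.

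The 12 tRNA synthetases known as ATF4 targets split into 7 called higher, 1 called lower (Wars, log2 fold change -0.32) and 4 not called, with Sars at 0.49 and Cars at 0.48. Of 8 other cytosolic tRNA synthetases, 2 were called higher and 3 lower, led by Farsa (-0.31). The difference between the 2 synthetase lists was not tested.

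Genes upstream of ATF4 and of neighbouring responses gave other counts. Of 4 eIF2 kinases, Eif2ak4 (GCN2, the sensor of uncharged tRNA) was called higher (0.37) and Eif2ak1 (HRI, the haem sensor) lower (-0.50). Of 10 genes of eIF2, eIF2B and the eIF2 phosphatase, 1 was called higher and 4 lower, led by Eif2b4 (-0.35). Chaperones and folding genes of the endoplasmic reticulum, targets of the unfolded protein response, were called lower for 7 of 16 and higher for none, with Creld2 at -0.61, Sdf2l1 at -0.56 and Dnajc3 at -0.51. For NRF2 targets the calls were 1 higher and 2 lower of 6, for p53 targets 2 and 2 of 10, for immediate early genes 3 and 2 of 10 and for cytosolic heat shock genes 0 and 2 of 6.

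All 11 hypoxia targets tested were called higher, with a median of 1.40, led by Adm (3.49), Egln3 (2.46) and Ankrd37 (2.42). Cell type markers also differed at E9.5: 6 of 8 neuron markers were called lower (summed 47.0 to 50.9 CPM in KI against 173 to 256), as were 5 of 6 neural progenitor markers (283 to 349 against 541 to 729). Of 6 heart markers, 6 were called higher (879 to 1695 against 359 to 479), and 5 of 8 trophoblast markers were (570 to 604 against 172 to 366). Of 8 extraembryonic endoderm markers, 3 (Gata4, Gata6 and Sox17) were called higher (277 to 389 against 117 to 125). Primitive blood markers summed to 579 to 2950 CPM in KI and 3130 to 8644 in controls. No marker of these lists was at 0 in every library of either group. In these bulk samples fewer cells of a type and less RNA per cell cannot be told apart, and the part of cell composition or hypoxia targets in the levels of the 10 genes was not tested.

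**Figure D2:**
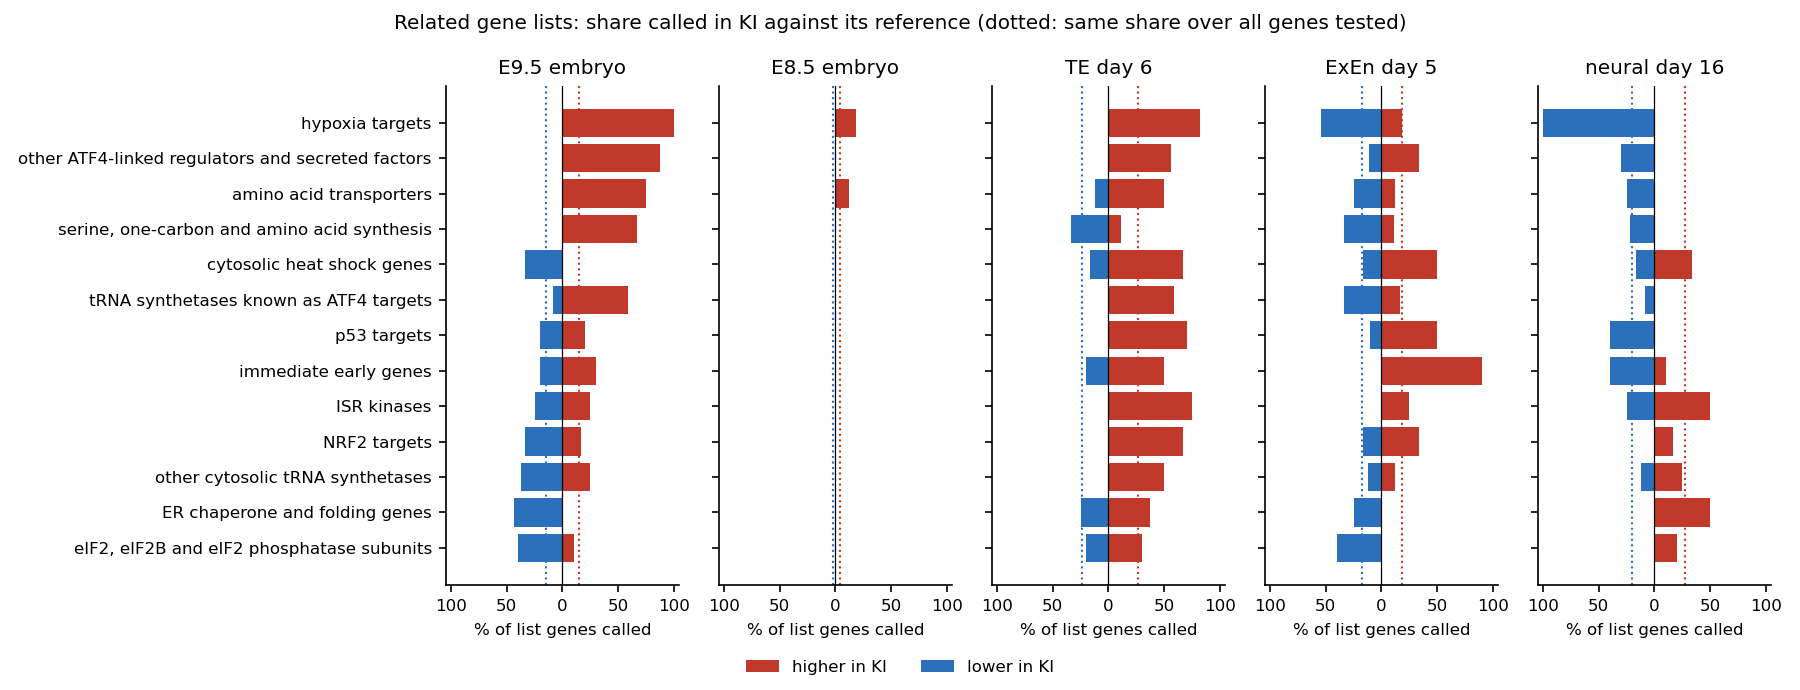
Share of the tested genes of each list called higher (red, to the right) or lower (blue, to the left) in KI against its reference, in percent, for 5 comparisons, with the share over all genes tested as dotted lines. All 11 hypoxia targets are called higher at E9.5 and all 11 lower at neural day 16, and few genes of any list are called at E8.5.

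At E8.5, a day earlier, Chac1 was already higher in KI embryos, while Trib3, Sesn2, Ddit3 and Atf3 were not called. The test called 3 of the 10 genes (5.46% of all genes tested were called): Chac1 and Slc7a11 higher and Psat1 lower (3.63% were called higher and 1.83% lower). Chac1 was at 1.35, 2.34 and 1.94 CPM in KI (31, 52 and 45 reads) and at 0.579, 1.11 and 0.935 CPM in controls (12, 30 and 20 reads). The 2 groups did not overlap, and Chac1 rose by 1.08 on the log2 scale (SE 0.28, adjusted p = 0.0305). At E9.5 the controls (0.997 ± 0.235 CPM, SD, n = 3) were near those of E8.5 (0.873 ± 0.269 CPM), and the KI embryos were at 21.0 against 1.88 CPM.

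Slc7a11 was at 29.8, 31.1 and 27.7 CPM in E8.5 KI against 21.6, 23.6 and 24.4 CPM in controls, and it rose by 0.35 on the log2 scale (SE 0.10, adjusted p = 0.0402). Psat1 was at 203, 217 and 202 CPM in KI against 240, 255 and 254 CPM, and it fell by 0.27 on the log2 scale (SE 0.06, adjusted p = 0.0175). Asns showed the same direction as Psat1 without overlap, at 50.7, 57.5 and 51.0 CPM against 57.8, 59.7 and 59.9 CPM, but was not called (-0.16, SE 0.08, adjusted p = 0.31). Both were higher in KI than in controls at E9.5, again without overlap, and this turn between the stages was not tested. Over all genes, 12.6% were higher and 13.2% lower in E8.5 KI without overlap, against 2 and 3 of the 10 genes.

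The remaining genes overlapped at E8.5, except Nupr1. Sesn2 was at 23.3, 28.6 and 22.6 CPM in KI and 23.8, 25.4 and 23.5 CPM in controls (0.04, SE 0.12). Trib3 had 20 to 64 reads in KI and 29 to 109 in controls (-0.41, SE 0.40). Nupr1 had 15, 3 and 1 reads in KI and 29, 19 and 15 in controls, too few for a fold. In the lists, 3 of 118 pathway genes were called, all higher, namely Slc7a3 (0.70), Egln3 (0.87) and Vegfa (0.32), against 3.63% called higher over all genes. Of the cell type markers, neuron markers summed to 48.4 to 58.7 CPM in KI and 51.7 to 60.3 in controls, trophoblast markers to 934 to 1104 against 608 to 746 and primitive blood markers to 114 to 212 against 696 to 1439. Among single markers, Map2 (-1.09), Nes (-0.46) and Meox1 (-1.04) were called lower, and Gata6 (0.60), Sox17 (0.90), Tfap2c (0.55) and Hand1 (1.32) higher. Their part in the E8.5 values was not tested.

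The E8.5 calls rest on small margins. Chac1 was no longer called without KI 2 (adjusted p = 0.12), KI 3 (0.0896), control 1 (0.13) or control 3 (0.0871), nor in a fit of the 6 E8.5 libraries alone (0.151), while its log2 fold change stayed between 0.86 and 1.12 in these fits. Psat1 was lost without KI 1 (0.063), KI 3 (0.0814) or control 3 (0.0871), and Slc7a11 without any 1 of the 6 libraries (0.0648 to 0.162).

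**Figure D3:**
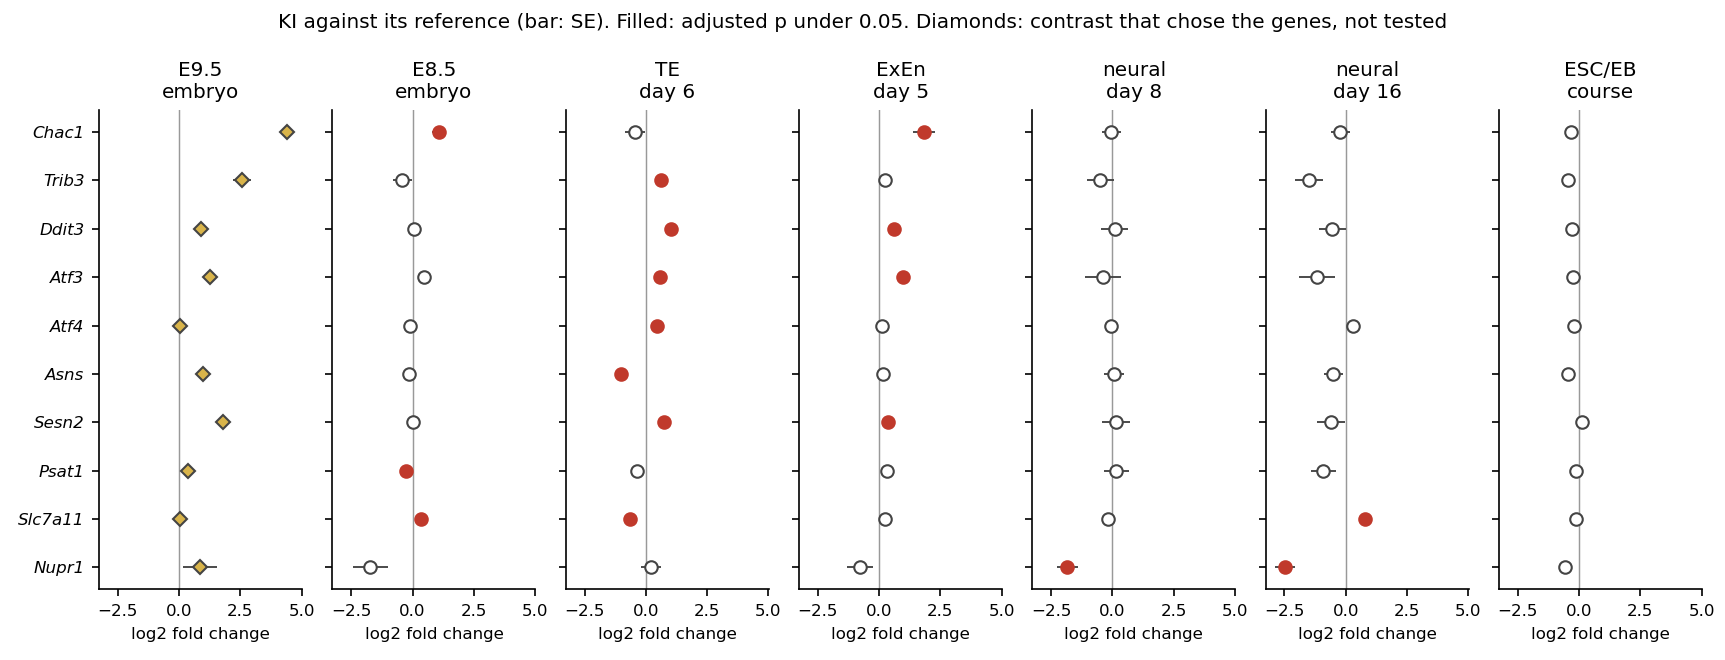
Log2 fold change of KI against its reference (horizontal axes) with its standard error as a bar, for the 10 genes in 7 comparisons. Filled circles mark an adjusted p under 0.05, open circles the others, and diamonds the E9.5 values, which chose the genes and carry no test. No gene is filled in all 6 tested comparisons.

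In TE cultures at day 6, Ddit3, Sesn2, Atf4, Trib3 and Atf3 were higher in KI, Asns and Slc7a11 were lower, and Chac1, Psat1 and Nupr1 were not called. In ExEn cultures at day 5, which were not simulated, Chac1, Atf3, Ddit3 and Sesn2 were higher and no gene was called lower. KI and flox were called different for 7 of 10 genes in TE (50.9% of all genes) and for 4 of 10 in ExEn (35.5%), a count near that of all genes. Without overlap, 5 genes were higher and 4 lower in TE of KI (39.7% and 39.4% of genes with at least 1 CPM), and 8 were higher in ExEn (35.5%). In simulated data, the share of false calls was above the threshold of 0.05 for TE, neural day 16, the EB course and EB day 4 to day 10, so culture calls near the threshold are less certain than their adjusted p states.

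Ddit3 was at 28.9 and 22.7 CPM in the TE libraries of KI clones 27 and 48 and at 13.2 and 12.6 CPM in flox, a rise of 1.01 on the log2 scale (SE 0.15, adjusted p = 7.34e-05). Sesn2 stood at 156 and 141 CPM against 97.1 and 81.6 CPM (0.75, SE 0.09, adjusted p = 1.87e-05). The Atf4 transcript was at 162 and 168 CPM against 121 and 126 CPM (0.44, SE 0.06, adjusted p = 2.07e-05). These 3 genes did not overlap between the groups, and each stayed called without any 1 library.

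Trib3 (17.4 CPM in both clones against 11.1 and 11.8) and Atf3 (46.3 and 32.3 CPM against 26.2 and 26.6) were called with adjusted p = 0.0128 and 0.0391. Trib3 was lost without flox 1 (adjusted p = 0.105) or flox 2 (0.0689), and Atf3 without flox 1 (0.157), flox 2 (0.154) or clone 27 (0.157).

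In the opposite direction, Asns was at 145 and 178 CPM in KI and 331 CPM in both flox libraries of TE, and it fell by 1.02 on the log2 scale (SE 0.09, adjusted p = 1.16e-06). Slc7a11 was at 11.6 and 11.4 CPM against 17.5 and 18.8 CPM, and it fell by 0.65 (SE 0.14, adjusted p = 0.0011). Both stayed called whichever library was left out. Chac1 was low in all 4 libraries, at 2.36 and 2.04 CPM in KI and 3.49 and 2.59 CPM in flox (-0.45, SE 0.40, adjusted p = 0.38). Psat1 (-0.34, adjusted p = 0.155) and Nupr1 (0.21, adjusted p = 0.688) were not called either.

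In ExEn, Chac1 was at 2.11 CPM in clone 27 and 4.89 CPM in clone 48, against 0.696 and 1.26 CPM in flox (14 and 24 reads). Both clones were above both flox libraries, and Chac1 rose by 1.84 on the log2 scale (SE 0.46, adjusted p = 0.00616), but not without flox 1 (0.0868) or clone 48 (0.102). Atf3 was at 92.5 and 68.1 CPM against 42.3 and 40.8 CPM (0.96, SE 0.19, adjusted p = 0.00639, and 0.0502 without flox 2). Ddit3 (14.9 and 16.7 CPM against 11.6 and 9.34) and Sesn2 (215 and 190 CPM against 157 in both) were called with adjusted p = 0.011 and 0.00608. Ddit3 was lost without flox 2 (0.134) or clone 48 (0.0568), and Sesn2 without flox 1 (0.0521) or flox 2 (0.0515).

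The difference between the KI effects in TE and in ExEn was itself called for 5 of the 10 genes, against 35.3% of all genes. The TE minus ExEn difference in log2 fold change was -2.29 for Chac1 (SE 0.61, adjusted p = 0.00954), -1.19 for Asns (SE 0.12, adjusted p = 1.74e-05) and -0.90 for Slc7a11 (SE 0.19, adjusted p = 0.00234). It was 0.31 for Atf4 (SE 0.08, adjusted p = 0.00939) and 0.38 for Sesn2 (SE 0.13, adjusted p = 0.0329). Asns and Slc7a11 stayed called without any 1 library. Chac1 did not without ExEn flox 1 (0.0595) or ExEn clone 48 (0.0567), nor Atf4 without TE flox 1 (0.0761) or ExEn flox 1 (0.106), and Sesn2 was lost in 5 of 8 such fits (0.111 to 0.203). With the line name as a block, the KI clones being shared by both cultures, Atf3 (-0.38, adjusted p = 0.0186) and Psat1 (-0.66, adjusted p = 8.11e-05) were called as well.

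In TE, 62 of 119 related pathway genes were called higher in KI and 13 lower (26.7% and 24.2% over all genes). They included 3 of 4 eIF2 kinases, led by Eif2ak2 (2.09), the sensor of double-stranded RNA, 7 of 12 tRNA synthetases known as ATF4 targets, with none lower, and 9 of 11 hypoxia targets. The other cytosolic tRNA synthetases also had calls higher and none lower, led by Farsa (0.59), Rars (0.46) and Farsb (0.26). So had the p53 targets, led by Mdm2 (0.9), Bbc3 (0.56) and Phlda3 (0.52). Differences between the lists were not tested. Of 8 amino acid transporters, 4 were called higher and 1 lower, with Slc7a3 at -1.94, Slc7a1 at 1.07 and Slc3a2 at 0.66. Of 9 genes of serine, one-carbon and amino acid synthesis, 1 was called higher (Psph, 0.49) and 3 lower, with Phgdh at -1.16 and Gpt2 at -1.0. In ExEn the calls were 30 higher and 28 lower of 119 (18.1% and 17.4%), with 9 of 10 immediate early genes higher and 6 of 11 hypoxia targets lower and 2 higher (Adm at 1.93 and Slc2a1 at 0.66). The tRNA synthetases known as ATF4 targets were split there. Nars (0.25) and Aars (0.22) were called higher, and Wars (-0.36), Gars (-0.3) and Tars (-0.3) lower. Markers moved too: trophoblast markers summed to 5145 to 5407 CPM in TE of KI against 3040 to 3104 in flox, pluripotency markers to 457 to 636 against 1307 to 1318, and all 8 endoderm markers were called lower in ExEn. The trophoblast list holds Cdx2, the gene that the TE cultures were made to express. Cdx2 itself was called higher in TE of KI (1.92 on the log2 scale, SE 0.12, adjusted p = 1.39e-08). Elf5, a trophoblast factor, was at 0.788 to 1.62 CPM in TE of KI against 15.4 to 18.4. The part of these differences in culture makeup and in Cdx2 in the values above was not tested.

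In neural cultures at day 8, 1 of the 10 genes was called in the fit with day 16, namely Nupr1, and lower (19.5% of all genes were called, 6.3% higher and 13.2% lower). It was at 1.90 and 1.58 CPM in KI and 6.35 and 6.23 CPM in flox. It fell by 1.84 on the log2 scale (SE 0.44, adjusted p = 0.0242), but the call was lost whichever of the 4 libraries was left out (0.0833 to 0.218). A fit of the day 8 libraries alone, without the wide spread of day 16, called 4 genes, all lower in KI: Nupr1, Trib3 (-0.50, adjusted p = 0.0026), Atf3 (-0.38, adjusted p = 0.00783) and Slc7a11 (-0.19, adjusted p = 0.0476). Trib3 was at 28.3 and 26.1 CPM in KI and 38.4 and 38.8 CPM in flox, and Atf3 at 14.8 and 14.9 against 19.8 and 19.1 CPM. Nupr1 overlaps Gm39087 in the GRCm38 annotation, so its reads may be mixed. Chac1 was at 61.0 and 64.1 CPM in KI and 65.3 and 65.0 CPM in flox, already above its level in every embryo. Neural samples are labelled polyA RNA and embryos total RNA, so tissue and label cannot be told apart there. Without overlap, 2 of the 10 genes were higher and 6 lower in KI (33.3% and 33.6% of genes). The flox libraries of this day differed by 1.50 chi-square per degree of freedom, the smallest of the pairs of 2 (2.76 to 54.83 in the others), so their spread may be understated.

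Between days 8 and 16 of neural differentiation in flox cells, Chac1 went from 65.3 and 65.0 to 169 and 201 CPM, a rise of 1.37 on the log2 scale (SE 0.40, adjusted p = 0.0242). Atf4, from 239 and 243 to 398 and 374 CPM, rose by 0.54 (SE 0.12, adjusted p = 0.00126). In all, 4 of the 10 genes were called, each higher at day 16 (77.1% of all genes were called, 38.4% higher and 38.7% lower), the others being Nupr1 (1.21, SE 0.38) and Ddit3 (1.64, SE 0.56, adjusted p = 0.0499). Without any 1 of the flox libraries, the call of Atf4 alone was left. With the line name as a block, Chac1 (adjusted p = 0.0905) and Ddit3 (0.134) were lost. In a fit of the flox libraries alone, which does not use the spread of the KI libraries, 9 genes were called. Without overlap, 8 genes were higher and 1 lower at day 16 (49.6% and 41.1% of genes).

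The KI libraries of day 16 were from the 2 clones, which differed. Clone 27 lay near flox for Chac1, Ddit3, Asns and Sesn2, and clone 48 was lower. Chac1 was at 219 CPM in clone 27 and 93.9 in clone 48, Ddit3 at 145 and 47.2, Sesn2 at 266 and 79.4, and Asns at 367 and 153 CPM. Trib3 was at 56.8 and 17.3, Atf3 at 19.3 and 3.74, Psat1 at 312 and 106 and Nupr1 at 4.33 and 1.37 CPM. Of the 10 genes, 8 were at least 2-fold lower in clone 48 than in clone 27, while 0.773% of 13850 genes were that far apart in either direction. The same clones had 0 of 10 genes that far apart at day 8, where Chac1 and Atf3 lay within 0.07 and 0.02 on the log2 scale. This gap was picked out after its values were seen and is given without a test. Each clone is a single library at day 16, so clone and culture cannot be told apart.

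Atf4 was the closest of those lower in clone 48, at 526 and 398 CPM, and Slc7a11 was higher there, at 538 CPM in clone 27 and 659 in clone 48. Related genes went the same way as the 8 genes: the summed level of the other ATF4-linked regulators was 1455 CPM in clone 27 and 697 in clone 48, of the amino acid transporters 2745 and 1108, and of the tRNA synthetases known as ATF4 targets 4398 and 2587. The other tRNA synthetases stood at 791 and 735 CPM, and the chaperones of the endoplasmic reticulum at 1981 and 2479. Neuron markers summed to 7243 and 8022 CPM in the clones, against 4565 and 4232 in flox. The part of cell composition in the gap between the clones was not tested.

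**Figure D4:**
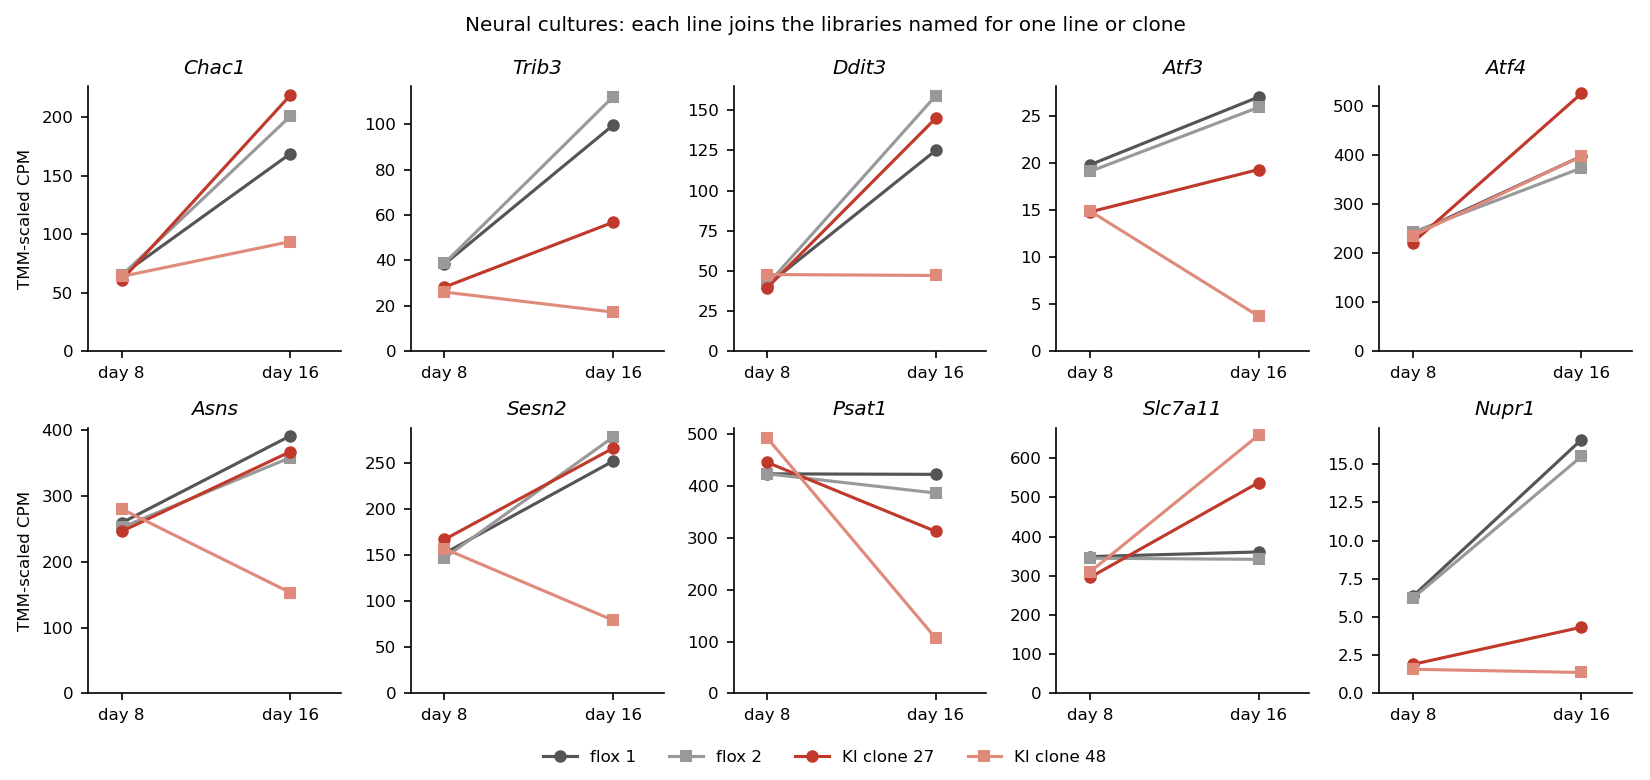
TMM-scaled CPM (vertical axes, from 0) of the 10 genes at days 8 and 16 of neural differentiation, with a line for each of flox 1, flox 2, KI clone 27 and KI clone 48. At day 16, clone 48 lies below the other 3 libraries for Chac1, Ddit3, Asns, Sesn2 and Psat1, and both clones lie above flox for Slc7a11.

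With both clones, edgeR called KI and flox different at day 16 for 2 of 10 genes, against 46.9% of all genes (27.1% higher and 19.7% lower). DESeq2 called 4 of the 10. Without overlap, 2 were higher and 4 lower (43.0% and 29.1% of genes). Slc7a11, at 538 and 659 CPM in KI and 361 and 342 CPM in flox, rose by 0.80 (SE 0.11, adjusted p = 9.3e-05). Nupr1, at 4.33 and 1.37 CPM in KI and 16.6 and 15.5 CPM in flox, fell by 2.48 on the log2 scale (SE 0.41, adjusted p = 0.00219). Both stayed called without any 1 library, though Nupr1 was lost in a fit of the 4 libraries alone (0.0859). Without clone 27, 9 of the 10 genes were called, with Slc7a11 higher and the other 8 lower (Chac1 -0.95, Trib3 -2.58, Atf3 -2.79). Without clone 48, 6 were called, among them Trib3 (-0.86) and Atf3 (-0.42) lower and Atf4 (0.48) higher. Trib3 and Atf3 were thus below flox in either clone.

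The KI effect at day 16 minus that at day 8 was called for Slc7a11 alone of the 10 genes (33.2% of all genes), with a difference of 0.98 (SE 0.15, adjusted p = 0.000431), called also without any 1 library. Without clone 27 of day 16, 9 genes were called. In KI cells, 3 of 10 genes were called between days 8 and 16, all higher at day 16 (79.9% of all genes were called, 40.7% higher and 39.2% lower): Chac1 (1.2, SE 0.39, adjusted p = 0.0364), Atf4 (0.89, SE 0.12, adjusted p = 1.93e-05) and Slc7a11 (0.86, SE 0.11, adjusted p = 8.59e-06). With the clone as a block Chac1 was not called (adjusted p = 0.139), nor was it without either clone of day 8. Without overlap, 3 genes were higher and 1 lower (50.0% and 40.8% of genes). Trib3, Asns and Sesn2 turned with the day 16 library left out. Without clone 27 of day 16 their changes were -0.76, -0.89 and -1.14, and without clone 48 they were 0.91, 0.33 and 0.57.

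Of 120 related genes at day 16, 18 were called higher in KI and 30 lower (27.1% and 19.7% over all genes). All 11 hypoxia targets were lower, with a median of -1.48, led by Adm (-2.57), P4ha1 (-1.97) and Slc2a1 (-1.80), whereas 8 of 16 chaperones and folding genes were higher, led by Calr (1.04). Fgf21, a secreted stress hormone, was at 0.0803 to 0.130 CPM in KI and 5.54 to 6.15 CPM in flox, and it was called lower (adjusted p = 5.46e-08). It was also called lower in KI at day 8, at 0.0978 to 0.172 against 0.695 to 0.799 CPM (adjusted p = 0.000322). The KI levels rest on few reads (3 reads give 0.05 to 0.069 CPM in these KI libraries), so no fold is given.

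Over the course from ESC to EB, the genotype averaged over the 3 days was called for 0 of 10 genes by edgeR (0.73% of all genes were called), in a fit that takes libraries of the same clone on different days as independent. Of the 10, 3 had an unadjusted p under 0.05, and DESeq2 called 1, Nupr1 (-0.58, adjusted p = 0.00153). In edgeR Nupr1 was lower by 0.56 on the log2 scale (SE 0.10, adjusted p = 0.058, and 0.0483 without flox of day 10). In ESC it was at 26.4 and 23.8 CPM in KI and 42.8 in flox, and at day 10 at 50.5 and 49.6 against 66.2. No gene of the 10 was 2-fold from flox in both clones on any day, while 7.21%, 5.26% and 6.82% of all genes were in ESC and at days 4 and 10.

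Between EB days 4 and 10, most of the 10 genes differed by more than between KI and flox. From EB day 4 to day 10 in KI cells 9 of 10 genes were called, all higher at day 10 (73.3% of all genes were called, 36.7% higher), and Psat1 was not (0.16, SE 0.17). Nupr1 went from 2.25 and 2.15 to 50.5 and 49.6 CPM (4.46 on the log2 scale, SE 0.12). Ddit3 went from 9.24 and 10.3 to 171 and 105 CPM (3.77, SE 0.27) and Trib3 from 15.3 and 17.6 to 263 and 159 CPM (3.64, SE 0.30). Chac1 went from 10.9 and 12.7 to 176 and 116 CPM (3.58, SE 0.32, adjusted p = 0.00016) and Atf3 from 13.0 and 11.4 to 140 and 75.5 CPM (3.10, SE 0.33). Atf4 rose by 1.22, Sesn2 by 0.96, Asns by 0.74 and Slc7a11 by 0.59. In flox, with 1 library per day and so no test, Chac1 was at 13.3 and 163 CPM and Ddit3 at 11.8 and 148 CPM.

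At day 10 all 10 genes were higher in clone 27 than in clone 48, by 0.03 (Nupr1) to 0.88 (Atf3) on the log2 scale, with the flox library between them for 7 genes. None of the 10 was 2-fold apart, as 4.58% of all genes were. In ESC and at EB day 4 clone 27 was instead below clone 48 for 8 and 7 of the 10 genes, so the order of the clones was not the same on all days.

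Of the related lists, all 10 other ATF4-linked regulators rose from day 4 to day 10 in KI, among them Atf5 (3.31) and Herpud1 (3.26). Fgf21 is given without a fold, since its day 4 level (0.0467 to 0.0938 CPM) is under that of 3 reads (0.136 to 0.137 CPM). Also called higher were 5 of 8 amino acid transporters, led by Slc6a9 (3.37). Over 120 genes, 58 rose and 36 fell (36.7% and 36.6% over all genes). Endoderm markers rose together with them in 8 of 8 and heart markers in 6 of 6, and pluripotency markers fell in 6 of 8, so the day of culture and its cell makeup cannot be told apart.

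From ESC to EB day 4 in KI, 3 of 10 genes were called (50.3% of all genes). Atf3 rose from 1.25 and 2.01 to 13.0 and 11.4 CPM (2.90, SE 0.42, adjusted p = 0.00245). Asns fell by 1.75 on the log2 scale, from 700 and 687 to 208 and 205 CPM (SE 0.15, adjusted p = 0.000116), and Nupr1 fell by 3.51, from 26.4 and 23.8 to 2.25 and 2.15 CPM (SE 0.12, adjusted p = 1.94e-06). DESeq2 called 5, adding Chac1 (0.99) and Trib3 (-0.67). Cell type markers moved with these: 6 of 8 pluripotency markers were called lower (summed 6322 to 6853 CPM in ESC and 1811 to 1873 at day 4), and 6 of 6 mesoderm markers, 6 of 8 endoderm markers and 6 of 7 trophoblast markers higher. The day of culture and its cell makeup cannot be told apart here either.

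**Figure D5:**
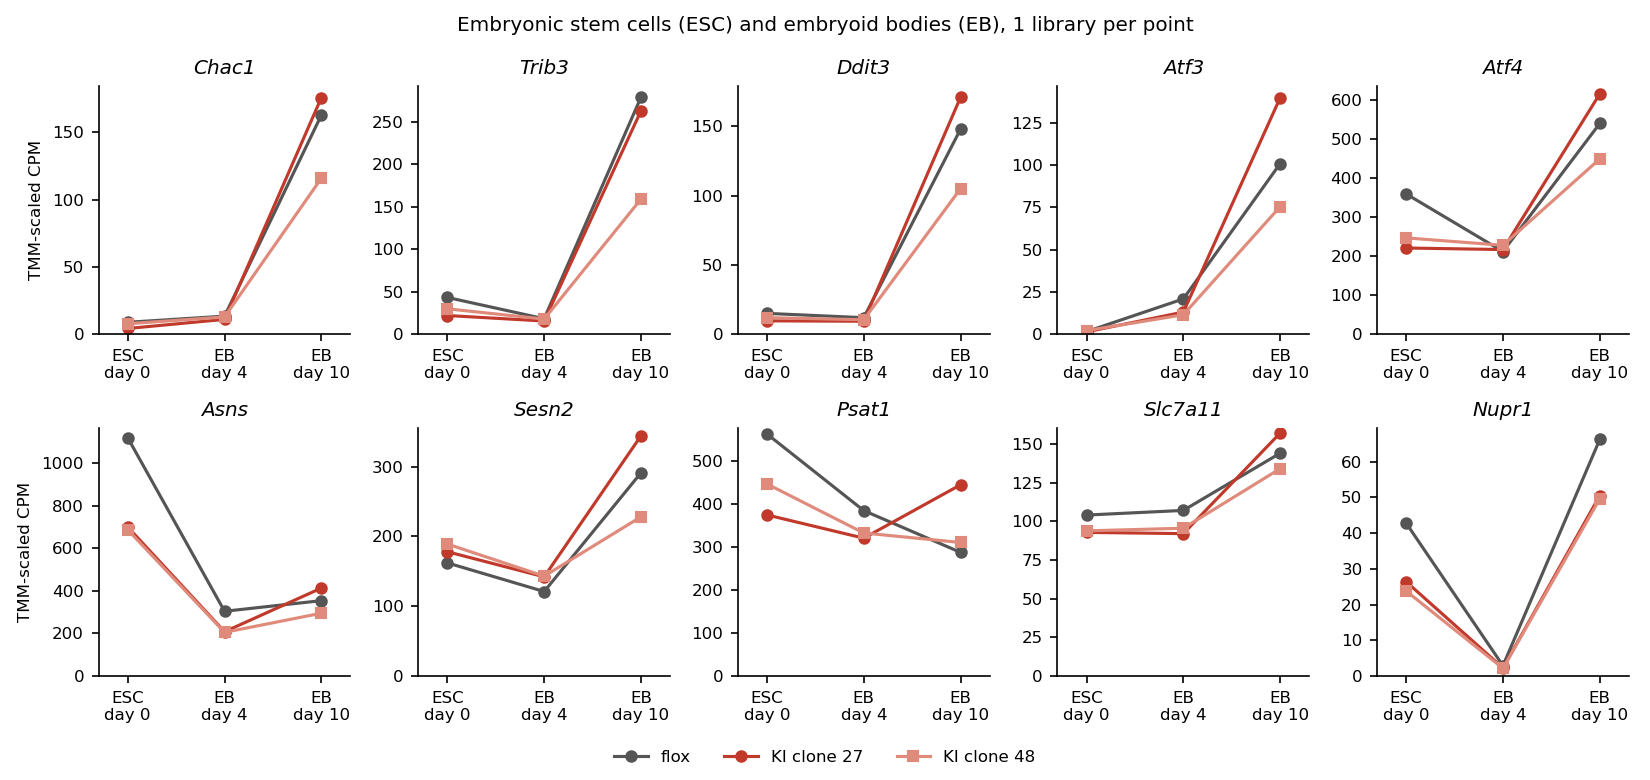
TMM-scaled CPM (vertical axes, from 0) of the 10 genes in embryonic stem cells (day 0) and embryoid bodies (days 4 and 10), with a line each for flox, KI clone 27 and KI clone 48 and 1 library per point. Chac1, Trib3, Ddit3 and Nupr1 are highest at day 10 in all 3, and Asns is highest in stem cells.

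Across the 18 groups the level of Chac1 ranged widely, with a 212-fold ratio between the highest mean (neural day 16 flox, 185 CPM) and the lowest (E8.5 controls, 0.873 CPM). The next in order, EB day 10 flox (163 CPM in its 1 library), neural day 16 KI (93.9 to 219 CPM) and EB day 10 KI (116 to 176 CPM), overlapped with each other. The E9.5 KI embryos, at 21.0 CPM, thus stayed below every neural and EB day 10 library. ESC, EB and neural samples are labelled polyA RNA, and embryo, TE and ExEn samples total RNA. Tissue and this difference in label cannot be told apart in such an order. Trib3 (142-fold) and Atf3 (76.1-fold) also varied widely. Nupr1 reached 66.2 CPM in EB day 10 flox and had too few reads in its lowest group, E8.5 KI, for a fold. Atf4 varied least of the other 9 genes, by 4.4-fold, from 123 CPM in TE flox to 541 in EB day 10 flox. The highest group was EB day 10 flox for Trib3, Ddit3, Atf4, Sesn2 and Nupr1, EB day 10 KI for Atf3, ESC flox for Asns (1119 CPM) and Psat1 (562 CPM), and neural day 16 KI for Slc7a11 (599 CPM). Of 17 neighbouring pairs in each order, 5 (Slc7a11) to 13 (Ddit3) overlapped.

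Over the 18 group means of log2 CPM (with 0.5 added), the genes outside the 10 whose pattern was most like that of Chac1 among 16084 were Aldh1l2 (Pearson r = 0.94), Arl14ep (0.93), Trim66 (0.93), Gm6568 (0.92) and Atf5 (0.92). Within the 10 genes, r with Chac1 was 0.89 for Ddit3, 0.87 for Trib3 and for Slc7a11 and 0.83 for Atf4, then 0.63 for Sesn2, 0.56 for Nupr1, 0.55 for Psat1, 0.54 for Asns and 0.30 for Atf3. Between pairs of the 10 it ran from -0.42 (Atf3 and Psat1) to 0.89. The points share days and cell lines, and their RNA label differs between sets of groups, so these values are descriptions and carry no test.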

How the data were processed

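RNA-seq tables of 37 libraries in 18 groups were analysed, and 63 of the 100 samples of the series were not analysed here. Per the labels' protocols, poly(A) RNA was selected and libraries were made with a NEBNext Ultra II kit. ESC, EB and neural samples are labelled polyA RNA and the others total RNA. The submitters' processing notes name bcl2fastq, Bowtie2, STAR, SICER 1.1 and the build mm9. The read counter, annotation version and use of strand are not given in the sources used here. Per the file headers, the authors deposited a raw read count for each of 29082 RefSeq transcripts. Per the file headers, the authors also deposited RPKM, used here only to compare levels between genes.

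For each gene the transcript with most reads was kept (23109 entries, from 28436 transcript accessions matched and 646 not matched to RefSeq names). Promoter windows are from RefSeq (GRCm38.p6), a build other than that of the reads, and all 10 genes matched. Tests were edgeR 4.0.16 quasi-likelihood fits (R 4.3.3, filterByExpr with at least 10 reads, TMM) with Benjamini-Hochberg adjustment over all genes of a comparison and a threshold of 0.05. SE is the log2 fold change divided by the root of F. Embryos, neural, TE with ExEn, and ESC with EB were fitted apart (differences in time between EB on the KI libraries alone), and the fits were tested on simulated data, where the share of false calls was above the threshold for TE, neural day 16, the EB course and EB day 4 to day 10, and below it at E8.5. No other comparison was simulated. Likeness used log2 of CPM with 0.5 added. Alternatives were DESeq2 1.42.0, RLE scaling, no filter, summed transcripts, only the libraries compared, a replicate block and leaving out each library.

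From each list, at most the 3 called genes with the largest change were named, and other genes named (Wars, Phgdh, Cbs and Got1 at E9.5, Fgf21 at day 8, Slc2a1, Nars and Aars in ExEn, the called markers, and the clone gap at neural day 16) were chosen after their values were seen. The members, lists and tests were chosen with earlier results of these data known. Same-numbered E8.5 embryos deviated together (r 0.26 to 0.5), and libraries whose titles carry KI number 27 or 48, taken as 1 clone each, did too (r 0.24 to 0.53). The value was 0.21 for KI 3 and control 3 of E9.5, which share a number. It was 0.2 for flox libraries of the same number at neural days 8 and 16.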

Additional observations from a re-analysis of the deposited data

Results flagged for a closer look

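The KI effect on Slc7a11 differed between neural day 16 and day 8 by 0.98 on the log2 scale in an interaction test. Between TE and ExEn cultures, interaction tests gave differences in KI effect of -2.29 for Chac1, -1.19 for Asns, -0.90 for Slc7a11, 0.31 for Atf4 and 0.38 for Sesn2. Asns and Psat1 were lower in all KI embryos than in any control at E8.5 and higher in all KI embryos at E9.5, with log2 fold changes 1.12 and 0.61 larger at E9.5. That difference between the stages was not tested.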

How the results depend on the processing

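RLE scaling and summing transcripts left the 13 main results and the 130 values of single genes the same. For tested comparisons, this means counts moved by no more than 1.5 times and single genes kept their side of the threshold. At E9.5, which has no test, it means a move smaller than the SE. Leaving out 1 library moved the E9.5 median from 0.82 to 1.07 and the counts of called genes to 0 to 2 at E8.5, 0 at neural day 8, 2 to 9 at day 16, 1 to 9 for the difference between these days, 1 in flox and 2 to 9 in KI over time, 5 to 8 in TE, 1 to 5 in ExEn, 2 to 7 for their difference, 0 to 1 over the EB course, 3 to 4 from ESC to day 4 and 9 to 10 from day 4 to day 10. With a single library in an arm, that library is assumed to vary like the others. In KI over neural time, Trib3, Asns and Sesn2 were at -0.76, -0.89 and -1.14 without clone 27 of day 16 and at 0.91, 0.33 and 0.57 without clone 48. A fit of only the libraries compared called 1 gene at E8.5, 4 at neural day 8, 1 at day 16 and 9 in flox over time. No filter gave 0 at neural day 8 and 1 in flox over time. DESeq2 called 4 at neural day 16, 1 over the EB course and 5 from ESC to day 4. With the line name as a replicate block, 2 genes were called in flox over time and 2 in KI, and no other main count moved by more than 1.5 times. The flox numbers of TE and ExEn share only a number (r = -0.02). Without TMM, the mean levels in E9.5 KI were 212 CPM for Atf4, 287 for Psat1 and 35.6 for Slc7a11. The cause of these changes was not tested. At 20.1 to 26.9 M reads per embryo, Nupr1 with 1 to 29 reads could not be resolved.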
